A study of Mus musculus with 6 samples.

Results

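The apolipoprotein genes examined here were the 10 genes of the A, B, C and E classes found by symbol in the deposited table of 45777 genes, namely *Apoa1*, *Apoa2*, *Apoa4*, *Apoa5*, *Apob*, *Apoc1*, *Apoc2*, *Apoc3*, *Apoc4* and *Apoe*. All 10 passed the filter on zero counts and were among the 18636 genes tested. They were measured by RNA-seq in livers of C57BL/6 mice that were 8 weeks old and had been fasted for 24 h, and the comparison asks how liver RNA differs without hepatocyte PAK4, a protein kinase. The 3 WT mice carried *Pak4* flox/flox without Cre, and the 3 LKO mice carried Alb-Cre; *Pak4* flox/flox. The paper gives all of them as male, and its methods give the WT mice as littermates. Each mouse gave 1 library, and both genotypes were fasted, so no fed liver enters any value. Cre made from the albumin promoter acts in hepatocytes, and the other cells of the liver keep *Pak4*.

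Apolipoproteins are the protein parts of lipoproteins, the particles that carry triglyceride and cholesterol in blood, and the liver and the intestine make most of them. ApoB is the non-exchangeable scaffold of very-low-density lipoprotein (VLDL), whereas the smaller A, C and E proteins move between particles. Several of these steer the hydrolysis of triglyceride by lipoprotein lipase (ApoC2 as its cofactor, ApoC3 as an inhibitor, ApoA5 as an enhancer), and ApoE is a ligand by which remnant particles are taken up.

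After TMM scaling of the libraries, *Apoa4*, *Apoc4* and *Apoa1* rose by 23.1-fold, 11.4-fold and 3.50-fold in LKO livers relative to WT. *Apoe* was the 1 member called lower, at 0.573 of its WT level, and this call depended on the scaling and on single mice. *Apoc3*, which lies between *Apoa1* and *Apoa4* on the chromosome, was not called. With edgeR's quasi-likelihood test and Benjamini-Hochberg adjustment over all genes tested, 7 of the 10 genes passed an adjusted p of 0.05 and are described as called, against 40.1% of all genes tested. In LKO mice, 6 of 10 were higher (19.6% of all genes tested) and 1 of 10 lower (20.5%). The WT and LKO values did not overlap for 8 of 10 members, against 54.0% of all genes tested. The median log2 fold change was 0.90 over the members and -0.039 over all genes tested. The split of calls depended on the scaling. With total counts in place of TMM, 3 members were higher (6.26% of all genes tested) and 2 lower (51.4%). A correction of each library for its trend with gene length gave 5 higher (19.9%) and 1 lower (18.7%), the latter *Apoc3* in place of *Apoe*. On log2(TPM + 1), where TPM are transcripts scaled by length and to a common sum per mouse, 2 were higher (2.43%) and 6 lower (71.5%), and on TPM of protein-coding genes 3 were higher (4.61%) and 2 lower (62.2%). *Apoa4*, *Apoc4* and *Apoa1* had a positive and *Apoe* and *Apoc3* a negative sign under all 18 settings of scaling, filter, model and unit. The log2 fold change ran from 2.97 to 4.61 for *Apoa4*, 1.68 to 3.59 for *Apoc4* and 0.24 to 1.88 for *Apoa1*, which was called in 16. The weakest values of *Apoe* and *Apoc3* were -0.015 and -0.035, neither called. With total counts and on TPM the median of all genes tested was negative too.

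**Figure D1:**
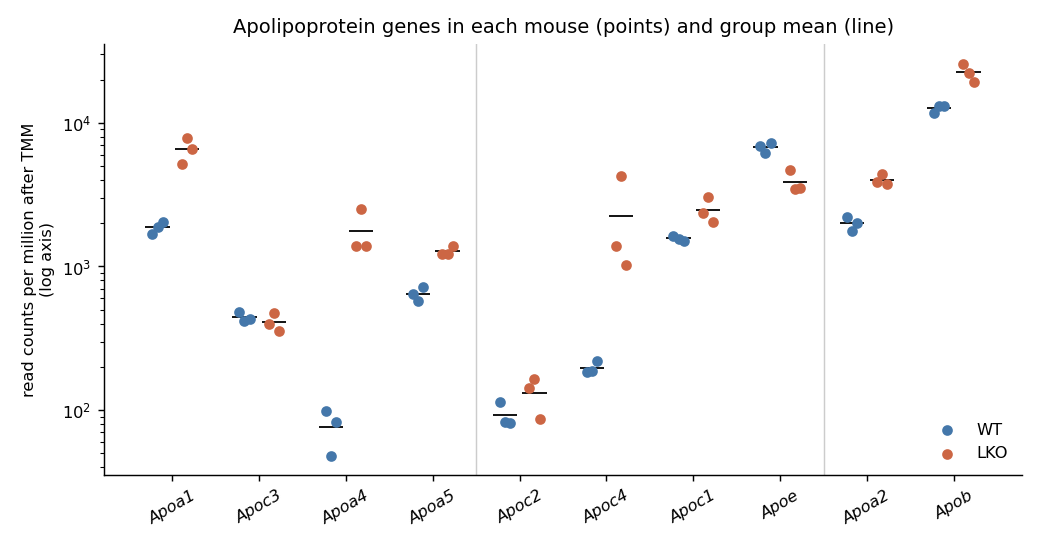
Levels in CPM (read counts over the TMM-scaled library size), on a log axis, for the 10 genes in each of the 3 WT (blue) and 3 LKO (orange) mice, with a bar at each group mean and the genes ordered by chromosome 9, chromosome 7 and the unlinked *Apoa2* and *Apob*. *Apoa4* and *Apoc4* show the widest gaps between genotypes (76.3 to 1765 and 195 to 2230.4 CPM on average), and only *Apoc2* and *Apoc3* overlap between them.

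The libraries of the 2 genotypes differed in composition, which touches every fold change given here. Each WT library held 45934632 to 55205564 counts and each LKO library 53936281 to 59576437, and edgeR's TMM factors, which assume that most genes do not differ, were 1.28 to 1.43 in WT and 0.639 to 0.816 in LKO mice. The 7SL genes took 4.55 to 5.24% of the counts in WT livers and 11.2 to 15.8% in LKO livers. Scaling by total counts alone moved the median log2 fold change of all genes tested to -0.90, so values under that scaling are read against -0.90. On log2(TPM + 1) this median was -0.79, so values on TPM of all genes, and their signs, are read against -0.79. *Pak4* had read counts of 268, 210 and 271 in the WT mice and 85, 52 and 149 in the LKO mice. Its log2 fold change was -0.71 (SE 0.31) with an adjusted p of 0.10, LKO mouse 3 lay within the WT range of CPM, and without that mouse the log2 fold change was -1.08 with an adjusted p of 0.015. The 8 hepatocyte markers were all detected, with a summed level of 33702 to 40428 CPM in WT livers and of 81710.1 to 104453 CPM in LKO livers (3 of 8 higher, 3 lower). *Alb* alone, the largest part of this sum, had 21079 ± 2368 CPM in WT mice against 69388 ± 12609 CPM in LKO livers. *Cps1* and *Ahsg* were also called higher. *Ttr*, *Trf* and *Serpinc1* were called lower (log2 fold change -1.35, -1.12 and -0.72), and *Tat* and *Hnf4a* were not called. On the TMM scale, summed markers of 3 other liver cell types were also higher in LKO mice. Macrophage markers were at 274 to 414 CPM (WT) and 445 to 865 CPM (LKO) (4 of 8 higher, 1 lower). Sinusoidal endothelial markers were at 334 to 393 and 601 to 656 CPM (4 of 6 higher), and stellate cell markers at 238 to 283 and 627 to 901 CPM (4 of 6 higher). All these marker sums depend on the TMM factors, which raise LKO values relative to WT, and were not taken with total counts. Cholangiocyte markers overlapped, at 1.83 to 2.39 CPM (WT) and 1.73 to 3.38 CPM (LKO), and the 3 tested of 5 were not called (*Krt19* log2 fold change 1.00, adjusted p = 0.092, *Epcam* and *Sox9* adjusted p = 0.94 and 0.85). The part of cell makeup in the results was not tested, and in a whole liver fewer cells of a type and less RNA per cell cannot be told apart. Replicates were separate mice, so the p-values measure the spread between these mice.

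Most of the family lies in 2 gene clusters, by the RefSeq annotation of GRCm38.p6. On chromosome 9, *Apoa1* (Entrez gene 11806, chr9:46228630-46230469), *Apoc3* (11814, chr9:46233050-46235636), *Apoa4* (11808, chr9:46240844-46243458) and *Apoa5* (66113, chr9:46268608-46271921) span 43.3 kb. On chromosome 7, *Apoc2* (11813, chr7:19671579-19677941), *Apoc4* (11425, chr7:19678084-19681460), *Apoc1* (11812, chr7:19689480-19692659) and *Apoe* (11816, chr7:19696244-19701310) span 29.7 kb. *Apoa2* (11807, chr1:171221564-171226379) and *Apob* (238055, chr12:7977629-8016839) stand alone.

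The promoters of the 3 genes with the largest rises are shown, since the fold changes of direct neighbours in each cluster differed widely. Each window runs from 250 bases before to 50 bases after a RefSeq transcription start in GRCm38.p6, 5′ to 3′ along the gene's own strand, and capitals mark the letters AGGTCA, the core element bound by many nuclear receptors.
*Apoa4*, chr9:46240594-46240893, + strand: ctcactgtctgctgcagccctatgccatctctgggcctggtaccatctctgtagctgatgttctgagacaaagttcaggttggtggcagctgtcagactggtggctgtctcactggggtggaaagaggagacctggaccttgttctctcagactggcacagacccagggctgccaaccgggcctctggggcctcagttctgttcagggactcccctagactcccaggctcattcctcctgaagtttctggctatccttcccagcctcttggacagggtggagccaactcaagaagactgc
*Apoa1*, chr9:46228380-46228679, + strand: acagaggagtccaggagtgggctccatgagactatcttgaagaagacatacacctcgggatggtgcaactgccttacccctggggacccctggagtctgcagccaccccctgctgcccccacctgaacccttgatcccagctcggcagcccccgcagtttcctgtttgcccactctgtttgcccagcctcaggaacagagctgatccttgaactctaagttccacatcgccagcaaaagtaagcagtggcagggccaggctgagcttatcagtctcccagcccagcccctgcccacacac
*Apoc4*, chr7:19681411-19681710, - strand: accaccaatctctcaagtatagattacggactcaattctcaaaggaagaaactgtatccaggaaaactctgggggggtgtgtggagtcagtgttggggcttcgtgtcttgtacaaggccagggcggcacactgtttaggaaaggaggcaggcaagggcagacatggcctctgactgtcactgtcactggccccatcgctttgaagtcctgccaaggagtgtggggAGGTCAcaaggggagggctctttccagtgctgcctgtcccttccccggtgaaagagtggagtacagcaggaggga
Promoter windows were found for 8 of the 10 members (12 windows), with none for *Apoc1* and *Apoc3*. AGGTCA, searched on both strands, stood in the windows of *Apoa2*, *Apoc2* and *Apoc4* and in 16.3% of all 32851 promoter windows. In *Apoc4* it began 25 bases before the start. TATAAA stood in windows of *Apoa2*, *Apoa5*, *Apob* and *Apoe* and in 13.6% of all windows. CAAAGTCCA and TGACGTCA were in 0.475% and 1.79% of all windows, and the direct repeat of AGGTCA with 1 base between (which holds AGGTCA) in 0.0396%. None of these 3 was found in a member's window. These matches only describe the letters in the windows.

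Class A apolipoproteins rose to very different extents under TMM scaling. *Apoa4* encodes a protein of chylomicrons and high-density lipoprotein (HDL) that the intestine makes in quantity and the mouse liver makes as well. Its read counts were 7326, 3140 and 5476 in the WT mice and 61566, 87362 and 64331 in the LKO mice, and its CPM after TMM scaling 98.3, 48.0 and 82.8 in the WT mice and 1399, 2505 and 1391 in the LKO mice. The lowest LKO mouse was far above the highest WT mouse, and LKO mouse 2 stood above the other two. *Apoa4* rose by a log2 fold change of 4.53 (SE 0.39) in edgeR's quasi-likelihood test (adjusted p = 2.4e-04). It stayed called under all 18 settings (log2 fold change 2.97 to 4.61) and without any 1 mouse (4.19 to 4.74). Of 6 enterocyte markers, *Fabp2* was tested and was higher (log2 fold change 2.29, adjusted p = 8.7e-04), while *Vil1*, *Lct* and *Cdx2* had 0 to 8 counts in each mouse and *Sis* and *Cdx1* had 0 counts in all 6.

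*Apoa1*, the main structural protein of HDL, had CPM of 1691, 1878 and 2039.9 in the WT mice and 5163, 7852 and 6609 in the LKO mice. Every LKO mouse was above every WT mouse. It rose by 1.81 (SE 0.26) on the log2 scale (edgeR's quasi-likelihood test, adjusted p = 0.0012). The rise was called with total counts (0.92), with a correction for gene length (1.47) and on TPM of protein-coding genes (0.84), and on TPM of all genes it was 0.24 and was not called (limma, adjusted p = 0.32).

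*Apoa2*, the second main protein of HDL, had CPM of 2223, 1760.1 and 1994 in the WT mice and 3864, 4437 and 3756 in the LKO mice, with no overlap. Its log2 fold change was 1.01 (SE 0.22) with edgeR's adjusted p at 0.0080, but 0.14 with total counts, 0.40 with the length correction (adjusted p = 0.17) and -0.53 on TPM of all genes. *Apoa2* has short transcripts, and its RefSeq span overlaps that of *Tomm40l*. *Apoa5*, the enhancer of lipolysis, had CPM of 643, 579 and 718 in the WT mice and 1221, 1218 and 1378 in the LKO mice. Its groups were also apart. The log2 fold change was 0.98 (SE 0.19) with edgeR's adjusted p at 0.0040. It stayed called with the length correction (1.08), fell to 0.12 with total counts and had the other sign on TPM of all genes (-0.56). Both genes thus rose relative to the typical gene under TMM. They were also above the median of all genes tested with total counts (-0.90) and on TPM of all genes (-0.79).

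*Apob*, the VLDL scaffold and the longest transcript of the family, took the most reads of any member, with CPM of 11733, 13129 and 13035 in the WT mice and 25888, 22170.0 and 19378 in the LKO mice. All LKO mice were above all WT mice. The log2 fold change was 0.83 (SE 0.30) and was not called (edgeR's adjusted p = 0.058). Its call was close to the threshold, and it was called higher in 10 of the alternative settings. These included edgeR's exactTest (adjusted p = 8.6e-04) and DESeq2 (adjusted p = 2.0e-05). They also included the length correction (1.08, adjusted p = 0.022) and upper-quartile scaling (0.92, adjusted p = 0.043). Total counts gave -0.027 and TPM of protein-coding genes -0.13, neither called. On TPM of all genes it was called lower at -0.72 (limma, adjusted p = 0.016), close to the median of all genes tested in that unit (-0.79).

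In class C, *Apoc4* rose strongly, *Apoc1* passed the threshold narrowly, and *Apoc2* and *Apoc3* were not called. *Apoc4* encodes a minor protein of VLDL. Its read counts were 13617, 12149 and 14430 in the WT mice and 61569, 149100 and 47047 in the LKO mice, and its CPM 183, 186 and 218 in the WT mice and 1399, 4275 and 1017 in the LKO mice. LKO mouse 2 was the highest by a wide margin, and all LKO mice were well above the WT mice. *Apoc4* rose by 3.51 (SE 0.53) on the log2 scale (edgeR's quasi-likelihood test, adjusted p = 0.0015). It stayed called under all 18 settings (1.68 to 3.59), and without LKO mouse 2 the log2 fold change was 2.62 (adjusted p = 0.0014). The table holds a further gene, *Gm44805*, whose span covers *Apoc2* and *Apoc4*. It had read counts of 484, 230 and 350 in the WT mice and 962, 82 and 123 in the LKO mice, far below *Apoc4*, and how the counting shared reads between them is not given in the sources used here.

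*Apoc1*, which can activate lecithin-cholesterol acyltransferase, had CPM of 1639, 1562 and 1507 in the WT mice and 2352, 3028 and 2039.6 in the LKO mice, without overlap. Its log2 fold change was 0.66 (SE 0.23), just past the threshold (edgeR's adjusted p = 0.047). The call was lost with the length correction (0.068, adjusted p = 0.82) and without any 1 mouse other than LKO mouse 3 (adjusted p up to 0.15), and the value was -0.23 with total counts. *Apoc2*, the lipase cofactor, had CPM of 114, 82.6 and 81.6 in the WT mice and 142, 164 and 86.6 in the LKO mice. LKO mouse 3 lay inside the WT range. The log2 fold change was 0.50 (SE 0.25) (edgeR's adjusted p = 0.15), -0.047 with the length correction and -0.39 with total counts, and without LKO mouse 3 it was 0.72 and called (adjusted p = 0.021).

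*Apoc3*, the lipase inhibitor, had CPM of 481, 415 and 431 in the WT mice and 395, 473 and 356 in the LKO mice. The groups overlapped, and the log2 fold change was -0.12 (SE 0.18) (edgeR's adjusted p = 0.63). With the length correction it was called lower at -0.73 (adjusted p = 0.0071), with total counts at -0.99 (adjusted p = 0.0010), close to the median of all genes tested under that scaling (-0.90), and on TPM of protein-coding genes at -1.08. Its neighbours on both sides, *Apoa1* and *Apoa4*, were called higher.

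*Apoe*, the remnant ligand, is made by hepatocytes and also by macrophages. Its read counts were 517643, 405475 and 481587 in the WT mice and 208077, 121222 and 161805 in the LKO mice, and its CPM 6943, 6197 and 7281 in the WT mice and 4727, 3476 and 3499 in the LKO mice. All LKO mice were below all WT mice. *Apoe* fell by 0.80 (SE 0.26) on the log2 scale (edgeR's quasi-likelihood test, adjusted p = 0.036). The call was lost with upper-quartile scaling (adjusted p = 0.056), with the length correction (adjusted p = 0.059) and without any 1 mouse other than LKO mouse 1 (-0.97 to -0.73, adjusted p 0.027 to 0.11). Macrophage markers moved unevenly beside it. *Clec4f*, *Marco*, *Vsig4* and *Timd4* were higher (log2 fold change 1.19, adjusted p = 0.0069 for *Clec4f*), *Cd68* was lower (log2 fold change -1.29, adjusted p = 0.0021), and *Adgre1* and *Csf1r* had log2 fold changes of -0.12 and -0.18 (edgeR's adjusted p = 0.74 and 0.52). Their part in the *Apoe* value was not tested.

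Read counts and length-scaled values of *Apoe* ordered the LKO mice differently. In TPM, which divide by transcript length, *Apoe* was at 4579, 4424 and 4502 in the WT mice and 1159, 1493 and 2087 in the LKO mice, so that LKO mouse 1 had the most reads and the lowest TPM. The length that the authors' pipeline used for *Apoe*, recovered as count over FPKM and depth, was 3309, 3281 and 3306 (relative units) in the WT mice and 3466, 1466 and 1462 in the LKO mice. The highest was 2.38 times the lowest after scaling by each mouse's median, whereas the other 9 members had ratios of at most 1.02. A ratio above 2 occurred in 18 of 4922 genes with a mean of at least 1000 counts and in 861 of all 18636 genes tested. When TPM were scaled by TMM, a setting chosen after seeing the data, the *Apoe* log2 fold change was -0.015 (limma, adjusted p = 0.98). The fall of *Apoe* was called on reads after TMM, with the limits given above. It was also called on TPM of all genes (-1.55), where the median of all genes tested was -0.79 and 71.5% were called lower. On TPM put on the TMM scale it was not called.

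**Figure D2:**
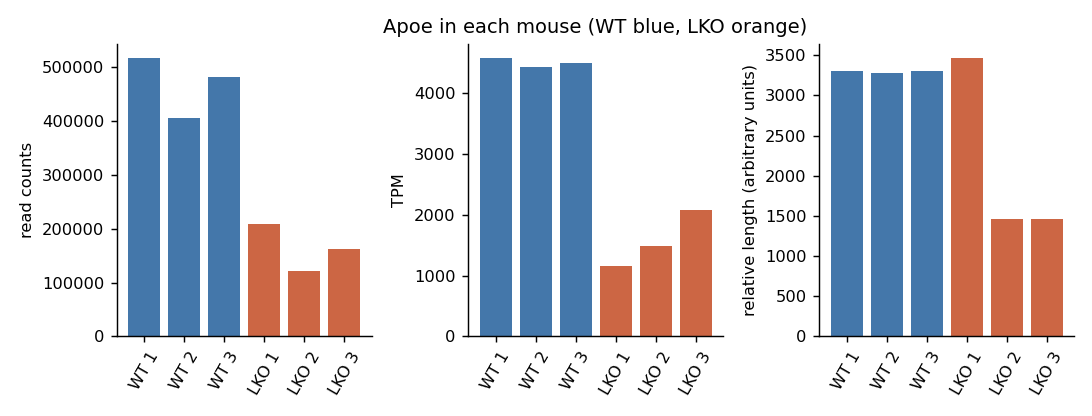
*Apoe* in each WT (blue) and LKO (orange) mouse as deposited read counts, as TPM and as the relative length implied by the ratio of counts to FPKM (arbitrary units), all on axes from 0. Counts and TPM are lower in every LKO mouse, and the relative length in LKO mice 2 and 3 (1466 and 1462) is far below that in the other 4 mice.

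**Figure D3:**
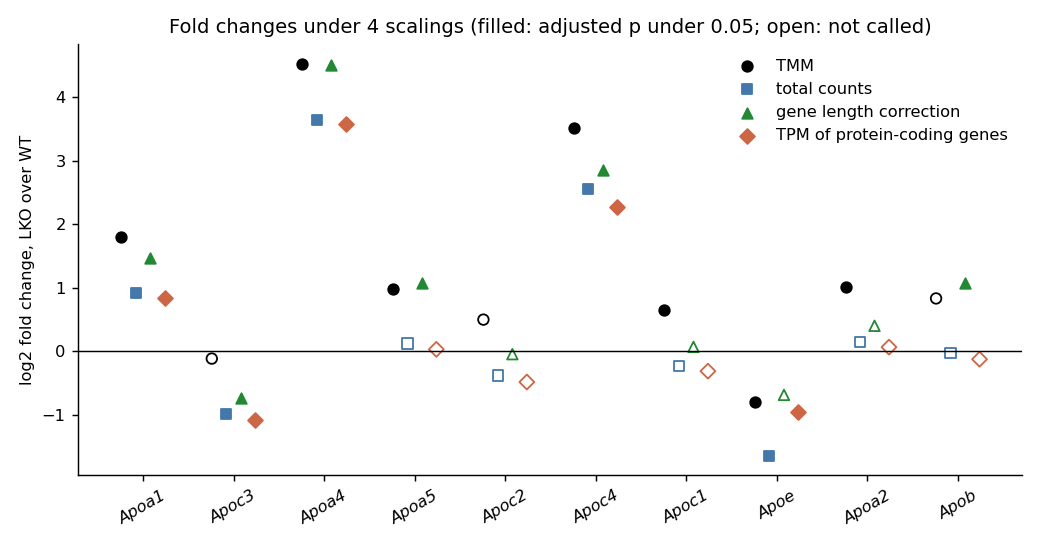
Log2 fold changes (LKO over WT) of the 10 genes under TMM, total counts, gene length correction and TPM of protein-coding genes, with filled symbols where the adjusted p was under 0.05 and open symbols otherwise. *Apoa4*, *Apoc4* and *Apoa1* lie above 0 and are called under all 4, *Apoe* and *Apoc3* lie below 0 under all 4, and *Apob*, *Apoc1* and *Apoc2* cross 0.

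The composition of the apolipoprotein pool, unlike a fold change, does not move with library scaling, though the *Apoe* share in TPM takes in the length described above. The shares are not corrected for the trend of each library with gene length. Each member was expressed as a percent of the summed TPM of the 10 genes in the same mouse. Of the 10 shares, 7 did not overlap between genotypes. Each had p = 0.1 in an exact permutation test (two-sided), the smallest that 3 against 3 mice allow. In CPM, 54.0% of all genes tested did not overlap, and no such rate was taken for shares. The shares of a mouse depend on each other because they sum to the whole, so a gain of some members lowers the others. *Apoa1* was 11.7, 14.1 and 14.3% in the WT mice and 19.7, 20.3 and 24.9% in the LKO mice. *Apoc4* was 2.40, 2.67 and 2.92% in the WT mice and 10.2, 21.1 and 7.31% in the LKO mice. Both gained in every LKO mouse, *Apoc4* most in LKO mouse 2. *Apoa4* went from 0.320% ± 0.0962 in WT mice to 3.38% ± 0.409 in LKO livers (SD, n = 3), a 10.5-fold larger share. The shares of the other C genes and of *Apoe* shrank without overlap. *Apoe* went from 16.2% ± 0.644 in WT mice to 7.72% ± 2.20 in LKO livers, *Apoc1* from 25.4% ± 1.37 in WT mice to 18.5% ± 1.62 in LKO livers and *Apoc3* from 5.87% ± 0.281 in WT mice to 2.51% ± 0.270 in LKO livers (SD, n = 3). *Apoc2* went from 0.897% to 0.586% of the pool. *Apoa2*, *Apoa5* and *Apob* overlapped, with differences of -1.40, -0.109 and -0.996 percentage points (exact permutation test, p = 0.7, 0.9 and 0.4). By read counts in place of TPM, *Apoc1* and *Apoc2* overlapped, and *Apoe* went from 25.8% to 8.67% of the members' reads.

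**Figure D4:**
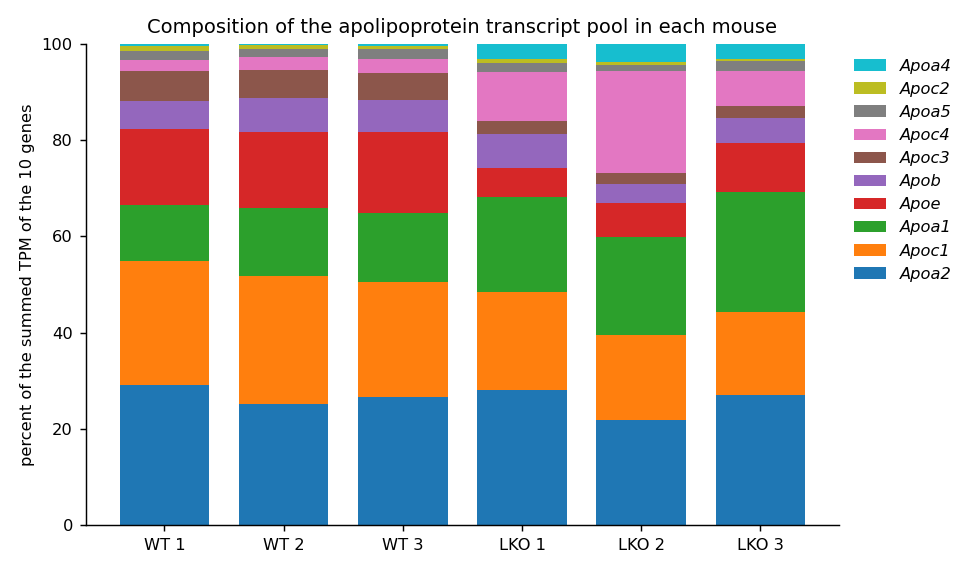
Percent of the summed TPM of the 10 genes taken by each gene, as stacked bars for each WT and LKO mouse. *Apoa1*, *Apoc4* and *Apoa4* take more of the bar in every LKO mouse (21.7, 12.9 and 3.38% on average against 13.4, 2.67 and 0.320%), *Apoe*, *Apoc1* and *Apoc3* less, and LKO mouse 2 has the largest *Apoc4* band.

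The order of the genes by TPM changed with the pool. In WT mice it ran *Apoa2* (7529.6 ± 732), *Apoc1* (7071 ± 618), *Apoe* (4502 ± 77.8), *Apoa1* (3719 ± 332), *Apob* (1796 ± 173), *Apoc3* (1636 ± 137), *Apoc4* (740.3 ± 45.6), *Apoa5* (511 ± 22.0), *Apoc2* (251 ± 50.1) and *Apoa4* (89.2 ± 27.5). Neighbours in this order overlapped between mice for *Apoa2* and *Apoc1* and for *Apob* and *Apoc3*, and the rest were apart. In LKO mice it ran *Apoa2* (5209 ± 463), *Apoa1* (4422 ± 639), *Apoc1* (3759 ± 191), *Apoc4* (2663 ± 1623), *Apoe* (1579.6 ± 470), *Apob* (1104 ± 246), *Apoa4* (691 ± 115), *Apoc3* (511 ± 29.1), *Apoa5* (351 ± 77.6) and *Apoc2* (119 ± 26.3). The first 5 each overlapped with the next in this order, and from *Apob* downward neighbours were apart. *Apoa4* thus left the last place and passed *Apoc3*, *Apoa5* and *Apoc2*. The members together took 3.48 to 3.68% of all counts (WT) and 3.07 to 3.80% (LKO), and their summed TPM was 27845 ± 1081 (SD) in the 3 WT and 20408 ± 1018 in the 3 LKO livers, while on TPM of protein-coding genes it was 41407 ± 2615 and 45858 ± 3428.

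Ratios between members of the same cluster, which also do not depend on library scaling, showed how unevenly each cluster changed. Like the shares, they are not corrected for the trend with gene length. That correction took the log2 fold changes of *Apoc1* and *Apoe* from 0.66 and -0.80 to 0.068 and -0.69. It took those of *Apoa5* and *Apoc3* from 0.98 and -0.12 to 1.08 and -0.73. On chromosome 9 the log2 ratio of read counts of *Apoa4* to *Apoc3* went from -2.59 ± 0.45 in WT mice to 2.06 ± 0.30 in LKO livers, and that of *Apoa1* to *Apoc3* from 2.08 ± 0.23 in WT mice to 3.99 ± 0.26 in LKO livers (SD, n = 3). In WT mice *Apoc3* thus had more reads than *Apoa4*, and in LKO mice fewer. *Apoa5* to *Apoc3* differed by 1.10 and *Apoa4* to *Apoa1* by 2.75 (LKO minus WT, log2). On chromosome 7 the log2 ratio of *Apoc4* to *Apoe* went from -5.12 ± 0.11 in WT mice to -1.08 ± 1.19 in LKO livers, with LKO mouse 2 the 1 mouse in which *Apoc4* had more reads than *Apoe*. Ratios over *Apoe* reads do not take in its differing length described above. In TPM, *Apoc4* was above *Apoe* in LKO mouse 1 (1976 against 1159) and LKO mouse 2 (4516 against 1493). *Apoc4* differed by 2.76 against *Apoc2* and by 2.59 against *Apoc1*, and *Apoc1* and *Apoc2* differed by 1.45 and 1.28 against *Apoe*. All 9 ratios were apart between genotypes (exact permutation test, two-sided, p = 0.1 for each ratio, the least that 3 against 3 mice can reach). The ratios are chosen pairs that share genes and include the members with the largest fold changes. They thus restate the fold changes above, and no rate was taken for other gene pairs.

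The neighbours of the 2 clusters were examined in the same way. Of 14 tested, 5 were called, each lower in LKO mice, where 40.1% of all genes tested were called and 20.5% were lower, so the count called is near that over all genes. The median log2 fold change was -0.48. The 5 were *Pcsk7*, a proprotein convertase (log2 fold change -0.91, adjusted p = 0.0012), *Pafah1b2*, a subunit of a platelet-activating factor hydrolase (log2 fold change -0.53, adjusted p = 0.012), *Zpr1*, a zinc finger protein next to *Apoa5* (log2 fold change -0.55, adjusted p = 0.049), *Bud13*, a splicing factor (log2 fold change -1.19, adjusted p = 0.026), and *Clptm1* (log2 fold change -0.58, adjusted p = 0.030). *Pcsk7* and *Pafah1b2* are distant, with lower ends at -322 and -263 kb from that of *Apoa1*. *Zpr1* overlapped between genotypes, and its call was lost with the length correction and upper-quartile scaling (edgeR's adjusted p = 0.094 and 0.070). *Tomm40*, beside *Apoe*, had a log2 fold change of -0.066 and *Sik3*, beside *Apoa1*, -0.061, neither called (edgeR's adjusted p = 0.84 and 0.88). These last 2 are named for their place in the clusters, after their values were seen.

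**Figure D5:**
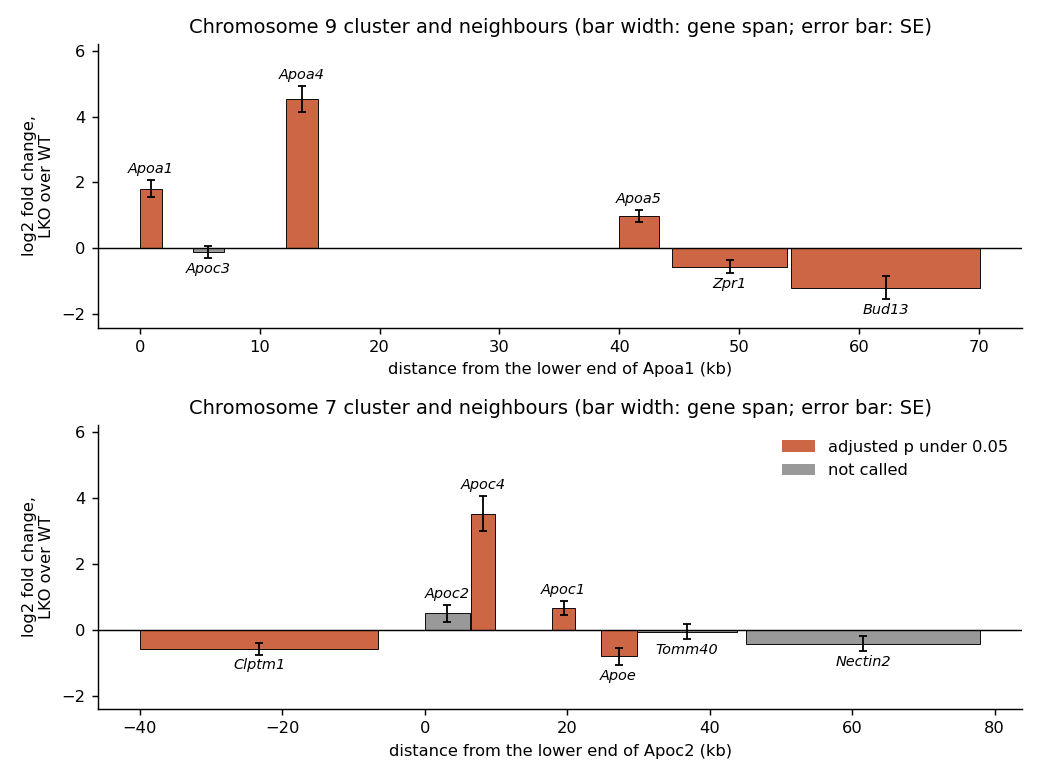
Log2 fold change (LKO over WT, bars, with SE) of genes that start within the plotted range, drawn at their place along the chromosome 9 cluster (top) and the chromosome 7 cluster (bottom), with distance in kb from the lower end of *Apoa1* and of *Apoc2*. Orange bars passed an adjusted p of 0.05 and grey bars did not, and the tall bars of *Apoa4* (4.53) and *Apoc4* (3.51) stand next to *Apoc3* (-0.12) and *Apoc2* (0.50, and below 0 with total counts).

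Other genes of lipoprotein metabolism were given by lists. Of 6 other apolipoprotein genes, 5 were tested and 1 was called (40.1% of all genes tested), *Clu* (clusterin), which fell with 656 ± 55.0 CPM in WT mice against 274 ± 46.8 CPM in LKO livers (log2 fold change -1.26, adjusted p = 0.0015). *Apod* had 0 to 12 counts in each mouse and was not tested. The median of the list was -0.21.

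Of 14 tested genes of lipoprotein assembly and *Apob* editing, 2 were called higher and 9 lower (19.6% and 20.5% of all genes tested), with a median log2 fold change of -0.69. *Sar1b*, a GTPase of the coat that carries lipoproteins out of the endoplasmic reticulum, rose (166 ± 19.5 CPM in WT mice against 407 ± 113 CPM in LKO livers, log2 fold change 1.29, adjusted p = 0.0030) under TMM, was not called with total counts (0.41, adjusted p = 0.098) and was below 0 on TPM of all genes. *Syncrip*, an RNA-binding protein, rose under TMM and was below 0 with total counts (log2 fold change 0.73, adjusted p = 0.0038 under TMM). *Cideb*, a lipid droplet protein used in VLDL lipidation, fell (log2 fold change -1.57, adjusted p = 6.0e-04), as did *Sort1*, a sorting receptor (log2 fold change -1.47, adjusted p = 8.9e-04), *Surf4*, a cargo receptor (log2 fold change -1.42, adjusted p = 4.5e-04), and *Tmem41b*, a lipid scramblase (log2 fold change -0.62, adjusted p = 0.014). *Mttp*, which loads lipid onto ApoB and is named after its value was seen, fell with 471 ± 42.3 CPM in WT mice against 297 ± 30.4 CPM in LKO livers (log2 fold change -0.67, adjusted p = 0.014). At a threshold of at least 2-fold, 4 of the 11 calls were left.

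Lipases and remodelling proteins went in both directions, with 3 of 13 called higher and 6 lower (19.6% and 20.5% of all genes tested) and a median of -0.14. The share called higher is near that over all genes. The called rises were *Gpihbp1*, the endothelial anchor of lipoprotein lipase (log2 fold change 0.99, adjusted p = 0.0020), *Angptl4*, a lipase inhibitor (log2 fold change 0.98, adjusted p = 0.028), and *Scarb1*, the HDL receptor (log2 fold change 0.74, adjusted p = 0.036), of which *Scarb1* was below 0 with total counts and the other 2 on TPM of all genes. The largest falls were *Lipg*, endothelial lipase (17.6 ± 6.65 CPM in WT mice against 2.11 ± 1.25 CPM in LKO livers, log2 fold change -3.06, adjusted p = 0.0014), *Lmf1*, a lipase maturation factor (log2 fold change -1.84, adjusted p = 3.1e-04), and *Angptl8* (log2 fold change -1.67, adjusted p = 0.0067). *Gpihbp1* was called beside 4 of 6 endothelial markers that were also higher, and their part in it was not tested.

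Receptors and their regulators were called lower for 4 of 10 genes and higher for 1 (20.5% and 19.6% of all genes tested), with a median of -0.78. *Lsr*, a lipolysis-stimulated receptor (log2 fold change -1.14, adjusted p = 0.0028), and *Lrpap1*, a receptor chaperone (log2 fold change -0.82, adjusted p = 0.0032), fell. *Mylip*, a ubiquitin ligase, rose (8.89 ± 1.48 CPM in WT mice against 31.1 ± 4.99 CPM in LKO livers, log2 fold change 1.81, adjusted p = 3.9e-04).

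Transcription factors and coactivators known to act on apolipoprotein genes were called higher for 2 of 18 and lower for 3, with a median of 0.042. The shares called are at or below those over all genes tested (19.6% higher and 20.5% lower). *Ppargc1a*, the fasting-induced coactivator PGC-1α, was called higher (8.27 ± 1.34 CPM in WT mice against 48.9 ± 52.7 CPM in LKO livers, log2 fold change 2.56, adjusted p = 0.017), with CPM of 18.9, 18.0 and 109.8 in the LKO mice, a spread larger than their mean. *Nr1h4*, the bile acid receptor FXR, was higher (log2 fold change 1.16, adjusted p = 0.0077), and was below 0 on TPM of all genes. *Srebf1*, the lipogenic SREBP1, fell (118 ± 60.7 CPM in WT mice against 10.5 ± 1.39 CPM in LKO livers, log2 fold change -3.50, adjusted p = 3.7e-04), and *Ppara*, the receptor for fatty acids in fasting (log2 fold change -1.12, adjusted p = 0.0069), and *Foxa2* (log2 fold change -0.94, adjusted p = 0.032) fell too. *Hnf4a*, a main activator of many of the 10 genes, had a log2 fold change of -0.30 with overlapping groups (edgeR's adjusted p = 0.42), and *Creb3l3*, a liver factor that acts on *Apoa4*, 0.094 (adjusted p = 0.65). These 2 are named after their values were seen.

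Over the 6 mice, the genes whose centred log2 CPM ran closest to *Apoa4*, among 6638 protein-coding genes averaging 10 CPM or more, were *Sult1d1*, a sulfotransferase (root mean square difference 0.443 log2 units), *Slco1a4*, an organic anion transporter (0.612), and *Cyp4a10*, a fatty acid omega-hydroxylase (0.619). *Sult1d1* was at 145, 93.7 and 114 in the WT mice and 1460.4, 4133 and 3913 in the LKO mice (CPM). Closest to *Apoe* were *Slc25a11*, the mitochondrial oxoglutarate carrier (0.0553), *Akap1*, a mitochondrial anchoring protein (0.0655), and *Trub1*, a pseudouridine synthase (0.0661). *Slc25a11* was at 68.1, 57.2 and 68.7 in the WT mice and 45.7, 34.8 and 36.0 in the LKO mice (CPM). The smaller differences for *Apoe* go with its smaller range between mice, and the likeness rests on 6 mice in 2 groups.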

How the data were processed

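Liver RNA of 3 WT and 3 LKO mice was sequenced with 1 library per mouse, grouped by the genotype in the labels, which give no batch. The methods name a total RNA kit with rRNA removal, and the labels an mRNA kit. The authors deposited, for each of 45777 genes and each mouse, read counts from StringTie that were not normalized, FPKM and TPM. The submitters' processing notes name bcl2fastq 2.20.0, FastQC 0.11.7, HISAT2 2.1.0, Bowtie2 2.3.4.1, StringTie 2.1.3b and mm10. The strand setting of the counting is not given in the sources used here. StringTie counts are derived from coverage and are estimates of reads. The FPKM deposited by the authors entered only as relative gene length (count over FPKM and depth), and the TPM deposited by the authors entered the pool shares, the gene order and the TPM alternatives.

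Genes with more than 1 zero count were left out, as in the methods, and 18636 (13858 protein coding) were tested after TMM by edgeR's quasi-likelihood method (edgeR 4.0.16, R 4.3.3; two-sided, Benjamini-Hochberg adjustment). An adjusted p under 0.05 was called. edgeR's common biological coefficient of variation came to 0.254. The step of adding 1 and taking log2 before TMM in the methods was not repeated. Single values were compared with two-sided exact permutation tests. Total counts per mouse were 45934632 to 59576437, and errors are SDs over 3 mice or SEs from the fit. Coordinates, gene types and promoter sequences came from RefSeq tables of GRCm38.p6, in which 45679 Entrez numbers matched.

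The members and lists were chosen with earlier results of these data known. The text names the 10 members, *Pak4*, every called gene of a list (the 3 highest and 3 lowest called where more than 6 were), the 3 genes most like the member with the largest rise and the member with the largest fall, and markers. Genes named outside this rule are said to be. Results for some single genes are not reported here, and these genes stay in the counts. Alternatives included DESeq2 1.42.0, edgeR's exactTest, 4 other scalings, 4 other sets of genes, a replicate block, a correction for gene length (lowess, span 0.3), both together, limma 3.58.1 on log2(TPM + 1) and with a pseudocount of 0.1, other thresholds, and leaving out each mouse. The setting with TPM scaled by TMM was chosen after seeing the data. On simulated counts for 18463 genes of this comparison, 200 genes were set to differ by 2 on the log2 scale. edgeR recovered 190 of them (95%) and called 9 unchanged genes, DESeq2 recovered 184, and limma on log2(TPM + 1) 125. The simulation had the same dispersion for all genes and as many rises as falls. It had no difference in composition or length trend between genotypes, so it cannot show how calls fare under those of these libraries.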

Additional observations from a re-analysis of the deposited data

How the results depend on the processing

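Members called (7) ran from 5 to 8 over the settings of scaling, filter, model and unit, and went to 4 at a threshold of at least 2-fold. Members called higher (6) went to 3 with total counts, 2 on log2(TPM + 1) and log2(TPM + 0.1) and 3 on TPM of protein-coding genes. They went to 7, with *Apob* added, under exactTest, DESeq2, upper-quartile scaling, TMM on protein-coding genes and the 4 other sets of genes. Members called lower (1) went to 0 with upper-quartile scaling, with TPM scaled by TMM, at an adjusted p of 0.01 and at 2-fold, to 2 with total counts and on TPM of protein-coding genes, and to 6 on TPM with either pseudocount. Leaving out 1 mouse at a time gave 5 to 7 members called, 5 to 7 higher and 0 to 1 lower, where the 1 was *Apoe* without LKO mouse 1. The share count (7) was 7 to 8. The sign turned for *Apoa2* (-0.53) and *Apoa5* (-0.56 and -0.57) on TPM with a pseudocount of 1 and 0.1. For *Apob* it turned with total counts (-0.027), on TPM (-0.72 with both) and on TPM of protein-coding genes (-0.13), and for *Apoc1* in the same settings (-0.23, -0.91 and -0.31). For *Apoc2* it turned with total counts (-0.39), the length correction (-0.047), TPM (-1.08 with both) and TPM of protein-coding genes (-0.49). *Pak4* was called with total counts (-1.54), on TPM (-1.19, and -2.14 with a pseudocount of 0.1) and on TPM of protein-coding genes (-1.14), and without 1 mouse it was -1.08 to -0.50. *Apoa4*, *Apoc4* and *Apoa1* kept their sign, as did *Apoc3* and *Apoe*, under all 18 settings. The weakest values of *Apoc3* and *Apoe* were -0.035 and -0.015, so the kept sign says little for them. The median log2 fold change of all genes tested was -0.79 on log2(TPM + 1), -1.34 on log2(TPM + 0.1) and -0.71 on TPM of protein-coding genes, and the split of calls was 1167 higher and 9575 lower with total counts and 453 and 13322 on log2(TPM + 1), against 3661 and 3815.

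Of the lists, other apolipoproteins called (1) went to 5 with total counts and all 3 TPM settings and to 2 with the length correction, assembly (11) to 4 and remodelling (9) to 5 at 2-fold. Receptors (5) went to 9 with total counts and 8 on TPM of protein-coding genes and with a pseudocount of 0.1. Regulators (5) went to 11, 13, 12 and 14 with total counts, log2(TPM + 1), TPM of protein-coding genes and log2(TPM + 0.1), to 2 with TPM scaled by TMM and to 3 at 0.01. Neighbours (5) went to 13 with total counts and the 3 TPM settings, 3 with the length correction and 1 at 0.01 and at 2-fold. Without 1 mouse the counts were 1 for other apolipoproteins, 8 to 11 for assembly, 6 to 8 for remodelling, 5 for receptors, 3 to 6 for regulators and 2 to 7 for neighbours. The causes were not tested.

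No pairing by replicate number was seen, as deviations of same-numbered mice correlated at r = 2.3e-04, -0.039 and -0.056 across genes. Those of mice with different numbers correlated at up to 0.056. With 3 mice per genotype this cannot exclude a pairing. With the replicate number as a block, 6431 genes were called in place of 7476 and 0 members lower (*Apoe* -0.82, adjusted p = 0.085; *Apoc1* 0.64, adjusted p = 0.11). The block with the length correction gave 2 other apolipoproteins, 2 neighbours and *Apoc2* at -0.063.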
